A study of Homo sapiens with 18 samples.

Results

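The comparison set cells carrying the FBL1 knockdown against cells carrying a scrambled control (SCR), by how strongly the reagent 2A3 marked each nucleotide of 18S rRNA. It used 12 of the 18 libraries of the series, 6 from each line, and left out the 6 libraries of the FBL2 knockdown. All cells were MDA-MB-231, an established human breast cancer cell line. Each line was treated for 15 min at 37 °C either with 2A3 or with DMSO, the solvent, which gives the background. The RNA of each treatment was then amplified with 3 primer sets, which gives a single library for each combination. FBL1 is read here as a knockdown of fibrillarin from the title of the series. How the knockdown was made and how far fibrillarin was lowered are not stated in the labels. Wells were seeded in duplicate, and the labels leave unsaid if both went into 1 library. With 1 library per group there is no replicate and no test, so every difference is a description of these libraries. Errors after ± cover the counting of reads only.

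Fibrillarin is the methyltransferase of the box C/D small nucleolar ribonucleoproteins. Guide RNAs of these particles pair with rRNA and place fibrillarin over the nucleotide that receives a methyl group on its 2′-hydroxyl. 2A3 is a SHAPE reagent: it acylates the 2′-hydroxyl of flexible nucleotides, which are mostly unpaired, and the adduct is read as a sequence event during reverse transcription. A nucleotide held in a helix or by a protein reacts little. A 2′-O-methylated nucleotide has no free hydroxyl for the reagent. 18S rRNA is the RNA of the small ribosomal subunit and forms the decoding centre, where codon and anticodon meet. The labels do not name the probed RNA. It was taken as 18S rRNA because the files number 1869 positions and carry the listed base at 41 of 41 listed 2′-O-methylation sites.

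Counted from the 5′ end, positions 25 to 815 were read by primer set 3. The stretch of primer set 2 ran from 614 to 1273, and that of primer set 1 from 1155 to 1840. Together they gave 2137 measurements at 1816 distinct positions. Primer set 1 was the shallowest, with 98418 to 280361 reads over each position. Primer set 2 had 452611 to 552159 and primer set 3 had 165795 to 361065. The amplified reads carry no molecular identifiers, so they are not independent molecules. Reactivity is the percent of those reads with an event, listed in steps of 0.1%, so that a value of 0 means under 0.05%. The signal is the 2A3 reactivity minus the DMSO reactivity of the same line.

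The changes fell into short stretches and single nucleotides, and 7 stretches that the results turn on are printed here as the deposited files give them. In the first 4, capitals mark the nucleotides that rose in FBL1 by the scaled rule defined below. These 4 show the pair that holds the largest rise in percent of reads, a nucleotide that was near background in SCR, the longest run of rises and the decoding-site strand.
301-334, primer set 3: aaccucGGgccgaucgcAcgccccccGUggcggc
414-426, primer set 3: aaucagGguucga
861-881, primer set 2: aauaauGGAAUAGgAccgcgg
1812-1834, primer set 1: uagaggAaguaAAAguCguaaca
In the next 3, capitals mark the nucleotides that fell by the same rule. They show the group with the largest fall in percent of reads, a C-rich group that fell only in the scaled reading, and a cytidine next to a hypermodified uridine.
353-374, primer set 3: cugcccUAUcaacuUUcgaugg
1758-1774, primer set 1: gggucgGCCCAcggccc
1241-1253, primer set 1: auuugaCucaaca

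Signal was higher along most of the RNA in FBL1. In primer set 3 the mean signal was 0.561% ± 0.000782 for SCR and 0.740% ± 0.000883 for FBL1. Primer set 2 gave 0.358% ± 0.000472 for SCR and 0.512% ± 0.00054 for FBL1. Primer set 1 gave 0.207% ± 0.000692 for SCR and 0.331% ± 0.000937 for FBL1. Over all measurements the ratio of the means was 1.40. FBL1 was higher at 1167 measurements, equal in the rounded values at 748 and lower at 222. Of 41 stretches of 50 nt with at least 40 positions measured, 33 had a mean SCR signal of at least 0.1%. Among these 33 the ratio was above 1 in 32. It had a median of 1.51 and ranged from 0.954, at positions 351 to 400, to 2.77, at positions 401 to 450, both in primer set 3. The highest value rests on G420: without it, an alternative chosen after the values were seen, the ratio of that stretch was 1.70. The DMSO libraries moved little beside this. Mean DMSO reactivity differed by -0.00262%, 0.0124% and 0.0134% between FBL1 and SCR in primer sets 1, 2 and 3. It changed by 0.5% or more at 4 of 2137 measurements.

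By the ratio of means, the relative gain was larger where signal was weak. Classed by the mean of both lines, measurements under 0.2% gave a ratio of means of 2.11 and those from 0.2% to 1% a ratio of 1.60. From 1% to 5% the ratio was 1.27, and from 5% upward it was 1.32. The median ratio, taken where both signals were above 0, gave another order. Under 0.2% it was 1, over 524 of 1502 measurements, and in the next 3 classes it was 1.5, 1.26 and 1.25. The means under 0.2% were 0.0403% in SCR and 0.0851% in FBL1, less than the 0.1% step. The classes use the same values as the ratios, so both orders are descriptions. Among the 204 measurements with a mean of at least 1%, the median ratio of FBL1 to SCR was 1.41 for guanosines, 1.35 for uridines, 1.26 for adenosines and 1.11 for cytidines. Cytidines were lowest in each primer set, with median ratios of 1.18, 1.09 and 1.12 in sets 1, 2 and 3. In those sets guanosines had 1.38, 1.54 and 1.30, over 6, 15 and 27 measurements. The gain was thus not equal across the bases, and a single scale factor per library does not remove it.

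Changes were therefore read in 2 ways. Unscaled, a position rose or fell when the signal differed by at least 0.5% of reads. Scaled, each library pair was first divided by a unit, the mean of the signals ranked from its 90th to its 98th percentile, and the difference had to reach 0.3 of these units. In both readings the 95% counting interval of the difference also had to leave out 0. The unit was 0.942% of reads in SCR and 1.34% in FBL1 in primer set 1. For primer set 2 the units were 1.73% and 2.20%, for primer set 3 they were 3.00% and 3.62%. The threshold in percent of reads is thus lowest in primer set 1, and counts are not comparable between primer sets.

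Unscaled, 147 measurements rose (6.88% of 2137) and 27 fell (1.26%). Scaled, 49 rose (2.29%) and 48 fell (2.25%). All 49 scaled rises were also rises in percent of reads. This was nearly fixed in advance, because the unit was larger in FBL1. From an SCR signal of 0 upward, a scaled rise took at least 0.403%, 0.661% or 1.09% of reads in primer sets 1, 2 and 3. In steps of 0.1% each of these passes the unscaled threshold. Of the 48 scaled falls, 24 were falls in percent of reads, 16 had no call there and 8 were rises. The balance rests on the scale factor. With values tied at the 90th percentile included in the factor, the form that was run first, the scaled split was 70 rises and 42 falls in place of 49 and 48. Without scaling between the lines it was 154 and 15. Under the median-ratio scaling it was 73 and 43. Under all 7 scalings compared and in percent of reads, 27 rises and 13 falls passed. Leaving aside the box-plot scaling, whose unit in SCR was only 0.161% to 0.370% of reads, 40 rises and 13 falls passed. Of the 97 scaled calls, 77 had equal rounded DMSO values in both lines and 93 differed in DMSO by at most 0.1%.

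**Figure D1:**
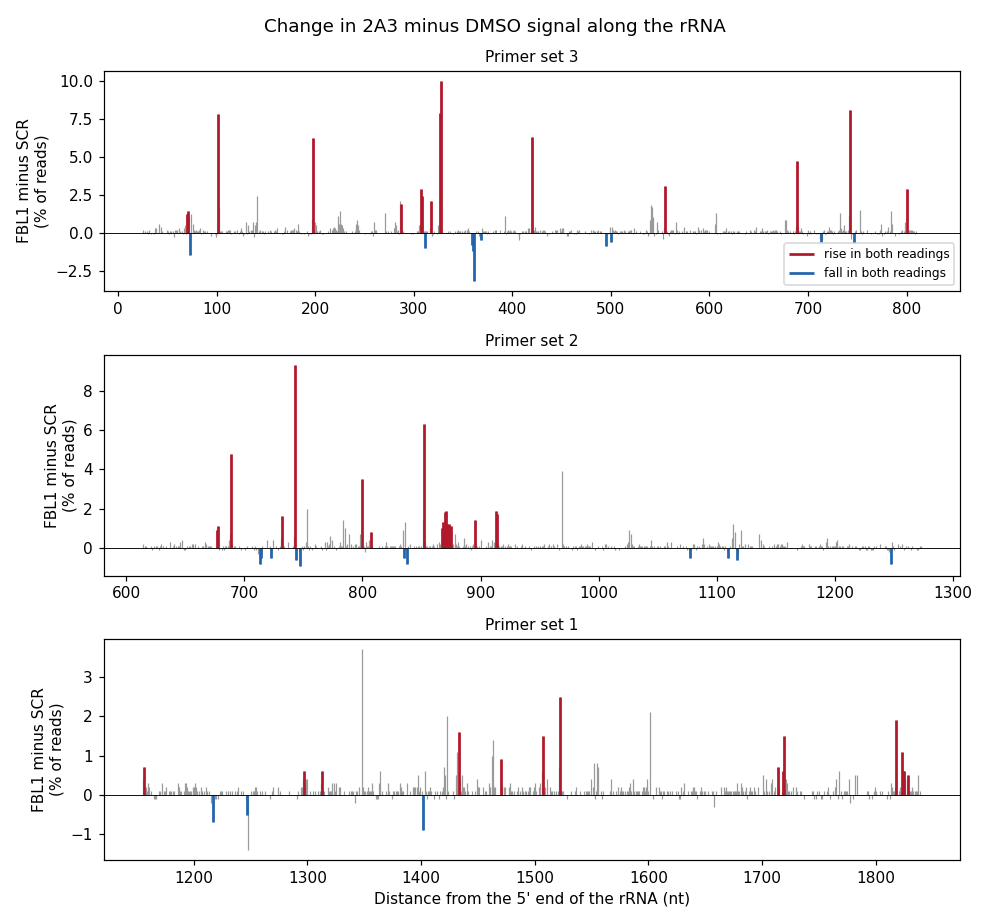
FBL1 minus SCR signal in percent of reads at every measured position, against the distance from the 5′ end of the RNA in nt, with 1 panel per primer set. Red marks the 49 measurements that rose and blue the 24 that fell in both the scaled and the unscaled reading; grey bars are all others, and most of them lie at or above 0.

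**Figure D2:**
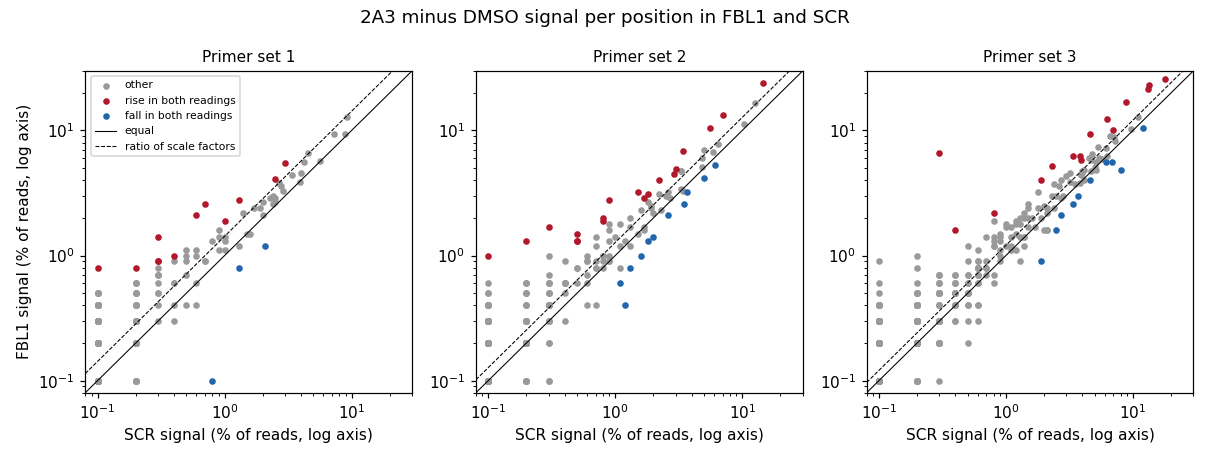
FBL1 against SCR signal for the 1150 measurements above 0 in both lines, in percent of reads on log axes. The solid line marks equal signal and the dashed line the ratio of the scale factors; most points of 1% or more lie above the solid line, and 46 of the 49 measurements that rose and all 24 that fell in both readings are shown.

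In the 5′ part, read by primer set 3, the largest rise lay at U328. With 2A3, 13.6% ± 0.0799 of SCR reads and 23.6% ± 0.109 of FBL1 reads carried an event there, with 0.3% in DMSO in both lines. The difference was 10.0% ± 0.136 of reads, or 2.00 ± 0.0403 scaled units, at a ratio of 1.75. Its 5′ neighbour G327 had 9.0% ± 0.065 in SCR and 16.9% ± 0.092 in FBL1, with 0.1% in both DMSO libraries. Both are printed in capitals near the end of the first stretch above, after a run of cytidines. Earlier in that stretch G307 had 2.4% in SCR and 5.4% in FBL1, G308 had 3.8% and 6.3%, and A318 had 2.2% and 4.2%. In the same stretch C311 went the other way, from 2.2% to 1.2% with 0.3% in both DMSO libraries. Neighbouring nucleotides thus moved in opposite directions within a few positions. G307, G308, C311 and A318 are named after their values were seen, as calls that held under every scaling.

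G420 showed the largest relative change among positions with little signal in SCR. Its 2A3 reactivity was 0.4% ± 0.0136 in SCR and 6.7% ± 0.0571 in FBL1, and its DMSO reactivity was 0.1% in both lines. The signal was 22-fold higher in FBL1, and rounding of the deposited values allows 16.2 to 33.5. In the scaled reading the difference was 1.72 ± 0.0166 units. G420 stood alone in its stretch: no other position within 10 nt was called.

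Other large rises in this part were A102, U198 and A555. A102 had the highest reactivity of these, at 17.9% ± 0.0968 in SCR and 25.7% ± 0.119 in FBL1, with 0.1% in both DMSO libraries. Its ratio was 1.44, and with box-plot scaling its direction turned. U198 had 6.3% ± 0.0549 in SCR and 12.5% ± 0.0798 in FBL1, a ratio of 2.00, with 0.1% in both DMSO libraries. A555 had 7.0% in SCR and 10.1% in FBL1, with DMSO listed at 0 in both lines; it is named after its values were seen. Near the 5′ end G70 and G71 rose and C73 fell, with only 1 nucleotide between them. G70 had 0.6% in SCR and 1.8% in FBL1, and G71 had 0.9% and 2.3%. Without DMSO subtraction G70 missed the threshold, at 0.278 units. C73 had 12.1% ± 0.0797 in SCR and 10.7% ± 0.0769 in FBL1.

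The largest fall in percent of reads lay at U361. Its 2A3 reactivity was 8.0% ± 0.0612 in SCR and 4.9% ± 0.0493 in FBL1, with DMSO listed at 0 and 0.1%. The signal ratio was 0.60 and the scaled difference -1.34 ± 0.0246 units. A360 had 6.8% ± 0.0564 and 5.6% ± 0.0527, and U359 had 3.5% ± 0.0405 and 2.7% ± 0.0366, so the decrease spanned 3 neighbouring nucleotides. A few positions on, U368 had 6.2% ± 0.0539 in SCR and 5.7% ± 0.0531 in FBL1 and also fell. U361 and A360 fell under every scaling, whereas U359 and U368 missed 0.3 units without scaling between the lines, at -0.267 and -0.167. Positions 351 to 400, which hold this group, were the only 50-nt stretch among the 33 compared with a lower mean signal in FBL1, at 0.790% against 0.828%. Among the stretches left out for weak SCR signal, positions 1201 to 1250 in primer set 1 were also lower, at 0.042% against 0.048%.

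In the middle part U743 carried the highest reactivity of the rises. Primer set 2 gave 14.7% ± 0.0538 in SCR and 24.0% ± 0.0708 in FBL1, and primer set 3 gave 13.3% ± 0.0828 and 21.4% ± 0.109, with 0.1% in all 4 DMSO libraries. The ratios were 1.64 and 1.61. Just 3′ of it G744 and U747 fell in primer set 2. G744 had 2.2% in SCR and 1.6% in FBL1, and U747 had 3.7% ± 0.027 and 2.8% ± 0.0242, each with 0.2% in both DMSO libraries. U747 fell in primer set 3 too, where G744 was lower without reaching the threshold. C713 fell in both primer sets. Primer set 2 gave 5.1% ± 0.0318 for SCR and 4.3% ± 0.0301 for FBL1, and primer set 3 gave 4.7% ± 0.0491 and 4.1% ± 0.0478.

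U689, U800 and G852 rose in the same region. U689 had 5.8% ± 0.0341 in SCR and 10.6% ± 0.0474 in FBL1, with 0.2% in both DMSO libraries. U800 had 3.4% ± 0.0259 and 6.9% ± 0.0379, with DMSO listed at 0 in both lines. G852 had 7.2% ± 0.0377 and 13.5% ± 0.053, with 0.2% in both DMSO libraries, a ratio of 1.90. In primer set 2 the direction of all 3, and of U743, turned with box-plot scaling. At U689, U743 and U800 the rise held under it in primer set 3. G852 was measured by primer set 2 alone. G677 and U678 rose from near background: G677 had 0.2% in SCR and 1.1% in FBL1, and U678 had 0.3% and 1.4%, with 0.1% in the DMSO libraries. With 1 scale factor per base U678 missed the threshold, at 0.227 units.

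The longest run of rises spanned positions 867 to 875, where 8 of 9 nucleotides rose in primer set 2. U871 had the highest reactivity, at 3.3% ± 0.0255 in SCR and 5.3% ± 0.0332 in FBL1, and A870 followed with 2.2% ± 0.0208 and 4.0% ± 0.0288. G868 had 2.0% and 3.3%, G873 had 1.8% and 3.0%, and A872 had 0.9% and 2.1%. The ratios of the 8 ran from 1.63 at U871 to 3 at G867. The shape of the profile was kept: in both lines U871 was the peak, as the plot of stretches with grouped changes shows. With box-plot scaling G868, A870, U871, G873 and A875 turned direction. Without DMSO subtraction A869 and G873 missed the threshold, at 0.255 and 0.285 units. In percent of reads all 8 rose. Downstream, G895 had 0.4% ± 0.00888 in SCR and 1.9% ± 0.0199 in FBL1, and A913 had 1.0% ± 0.014 and 2.9% ± 0.0246. Both held under every scaling. The scaled falls at C835, A837, G838 and C839, upstream of G852, were smaller. G838 had 6.2% ± 0.0349 in SCR and 5.4% ± 0.0335 in FBL1, and C835 had 3.7% and 3.3%. In FBL1 A837 was lower by 0.1% of reads and C839 was higher by 0.1%, so both fell only in the scaled reading. From C835 to C839 the mean signal was 4.6% in both lines.

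In the 3′ part, read by primer set 1, A1522 had the largest rise in percent of reads among those called in both readings. Its 2A3 reactivity was 3.1% ± 0.038 in SCR and 5.6% ± 0.0734 in FBL1, with 0.1% in both DMSO libraries. A1719 had 0.6% ± 0.0167 and 2.1% ± 0.045, a ratio of 3.5, with DMSO listed at 0 in both lines. G1507 had 1.4% ± 0.0255 and 2.9% ± 0.0528. Near A1719, U1714 and G1718 also rose, and their DMSO reactivity was lower in FBL1. Without DMSO subtraction both missed the threshold, at 0.232 and 0.134 units. U1714 had 0.4% with 2A3 and 0.5% with DMSO in SCR, against 0.9% and 0.3% in FBL1. G1718 had 0.6% with either reagent in SCR, against 1.0% and 0.4% in FBL1. U1156, U1297 and C1470, named after their values were seen, held under every scaling with rises of 0.7%, 0.6% and 0.9% of reads.

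The strand of the decoding site was more reactive in FBL1 at 5 called positions, read by primer set 1 alone. The strand lies on the 3′ side of helix 44. A1824 and A1825 are the counterparts of the bacterial adenosines that inspect the pairing of codon and anticodon. Of the called positions, all but A1818 lie in the last 20 of the covered stretch, which ends at 1840. The alternative without stretch ends left them out, so it does not bear on them. A1824 had 0.2% ± 0.00967 in SCR and 0.8% ± 0.0278 in FBL1, and A1825 had 0.3% ± 0.0118 and 0.9% ± 0.0295, with DMSO listed at 0 in all 4 cases. Their ratios were 4 and 3, and rounding allows as little as 2.33 and 2. A1823 had 0.4% ± 0.0137 and 1.5% ± 0.0381. A1818, the largest of the stretch, had 0.8% ± 0.0193 and 2.7% ± 0.0511, at a scaled difference of 1.19 ± 0.0442 units. C1828 rose from a signal of -0.1% to 0.4%, with DMSO at 0.5% in SCR and 0.3% in FBL1, and missed the threshold without DMSO subtraction, at 0.109 units. With 1 scale factor per base A1825 and C1828 missed it too, at 0.282 and 0.273 units. Between positions 1818 and 1828 the mean signal was 0.127% in SCR and 0.664% in FBL1, with 10 positions higher and 0 lower. These bounds are the outermost called positions, so this mean and count come from a stretch picked by its differences. From 1801 to 1840, a stretch of fixed bounds, the mean signal was 0.070% in SCR and 0.280% in FBL1. There 28 positions (70%) were higher, 10 equal and 2 lower. The ratio of means was 4, in a stretch left out of the ratios compared above because its SCR signal was under 0.1%. In the other stretches of primer set 1 left out for this, the ratio ran from 0.875, at 1201 to 1250, to 4.33, at 1651 to 1700. In those stretches the share of positions higher in FBL1 ran from 42% to 71.7%. The gain from 1801 to 1840 thus does not stand apart from that of other weak stretches. G626, the counterpart of the bacterial guanosine that completes the decoding site, did not change by either rule. Its 2A3 reactivity was 0.7% and 0.8% in primer set 2, and 0.5% in both lines in primer set 3.

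**Figure D3:**
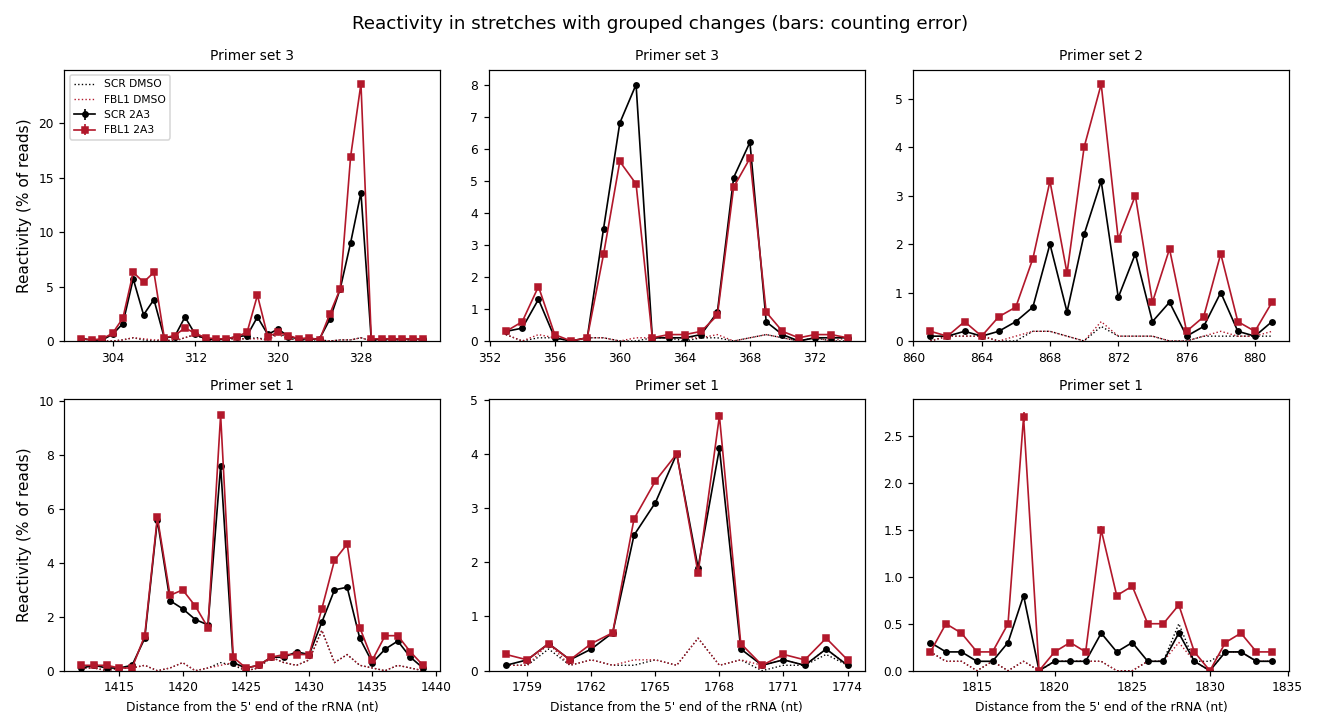
2A3 reactivity in percent of reads (symbols joined by lines, bars are counting errors) and DMSO reactivity (dotted) in SCR (black) and FBL1 (red) along 6 stretches with grouped calls, against the distance from the 5′ end in nt. FBL1 lies above SCR at 10 of the 11 positions from 1818 to 1828 after DMSO subtraction, below SCR at U359, A360 and U361, and close to SCR at C1418 and C1766, which fell only in the scaled reading. The bounds 1818 and 1828 are the outermost called positions of their group.

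In the 3′ part only A1217, C1247 and A1402 fell under every scaling. A1217 fell in primer set 1 alone, by -0.775 units and -0.7% of reads. Primer set 2 read it at 0.0331 units and 0.1% of reads. A1402 had 2.2% ± 0.0337 in SCR and 1.3% ± 0.0354 in FBL1, with 0.1% in both DMSO libraries and a scaled difference of -1.34 ± 0.0454 units. At C1247 primer set 1 gave 1.4% for SCR and 0.9% for FBL1, and primer set 2 gave 1.3% and 0.5%, so both gave a fall. It lies directly 5′ of U1248, the hypermodified uridine of the small subunit. At U1248 about every other read carried an event without 2A3. In DMSO, primer set 1 gave 54.2% ± 0.174 for SCR and 52.8% ± 0.137 for FBL1, and primer set 2 gave 50.9% ± 0.0962 and 50.6% ± 0.0967. With 2A3, primer set 1 gave 52.0% and 49.2%, and primer set 2 gave 50.8% for both lines, so only FBL1 in primer set 2 was above its DMSO value, by 0.2%. The subtraction is therefore not informative at this nucleotide. Whether events at U1248 bear on the value at C1247 was not tested.

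Most other scaled falls of the 3′ part were not falls in percent of reads. C1418 had 5.6% ± 0.0536 in SCR and 5.7% ± 0.0741 in FBL1, and fell by 1.70 scaled units because the unit was 1.42-fold larger in FBL1. C1783 had 8.9% ± 0.0645 and 9.4% ± 0.0953 and fell by 2.41 units. C1766 had 4.0% in both lines. C1423 had 7.6% ± 0.0609 and 9.5% ± 0.0957, a rise of 2.0% of reads, and its scaled difference of -0.82 units turned with the median-ratio scaling. At C1423 the scaled difference was also above 0 with 1 scale factor per base and with tied values included. C1418, C1783 and C1766 fell only relative to the scale factor of their library. In the middle part C785 and U1115 showed the same, with 10.5% and 11.5% at C785 and 6.1% and 6.9% at U1115 in primer set 2. Cytidines made up 22 of the 48 scaled falls and 3 of the 49 scaled rises, beside their smaller gain given above. They were 578 of all 2137 measurements and 62 of the 204 with a mean signal of at least 1%. Of the 578, 3.81% fell and 0.519% rose, against 2.25% and 2.29% of all measurements. With 1 scale factor per base, 30 of the 48 falls and 41 of the 49 rises remained.

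At the listed 2′-O-methylation sites, the nucleotides that fibrillarin modifies, 2A3 reactivity was low in both lines. The 41 sites were measured 48 times. Their median 2A3 reactivity was 0.25% in SCR and 0.35% in FBL1, with a median DMSO reactivity of 0.2% in both. The signal was higher in FBL1 at 28 measurements, equal at 17 and lower at 3, that is, higher at 58.3%, against 54.6% of all measurements. All measurements are not matched to the list in signal: 46.7% were higher under 0.2% and 71.7% from 0.2% to 1%. The ratio of means was 2.23 over the list, at 0.0813% and 0.181%, and 1.40 over all measurements. These list means are near the 0.1% step. Where both signals were above 0, the median ratio was 1.5 over 23 listed measurements and 1.25 over all 1150. The median change was 0.1% of reads over the list and over all measurements. In scaled units it was 0.0247 over the list and 0.0104 over all measurements, both far under the threshold. By either rule 1 of the 48 rose, which is 2.08% beside 2.29% of all measurements in the scaled reading and 6.88% in the unscaled one.

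The listed site that rose was Gm867, with 0.7% ± 0.0117 in SCR and 1.7% ± 0.0188 in FBL1, and 0.2% in both DMSO libraries. It is the first of the run of 8 rises printed above, of which the other 7 are not listed sites. The next largest changes lay at Cm1703 and Am1678, under the threshold. Cm1703 had 0.4% ± 0.0136 in SCR and 1.1% ± 0.0325 in FBL1, and its DMSO reactivity was also higher, at 0.5% against 0.2%. Am1678 had 0.5% ± 0.0153 and 0.8% ± 0.0278 with 0.4% in both DMSO libraries. Am99 had 1.4% and 1.2% with 2A3, and 1.5% and 1.6% with DMSO, so its reactivity was no higher with the reagent. At several sites the DMSO value was as high as the 2A3 value. Except at Gm867, no listed site changed by more than 0.4% of reads in either direction. Changes of this size are under the thresholds chosen, so the lack of a call does not show that a site was unchanged. Cm1703 and Am1678 were called rises under 90th-percentile scaling, box-plot scaling and without scaling between lines. Under the median-ratio scaling and with 1 scale factor per base they were not. With 1 library per group, such changes cannot be told from variation between libraries, and rounding further limits the smallest.

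**Figure D4:**
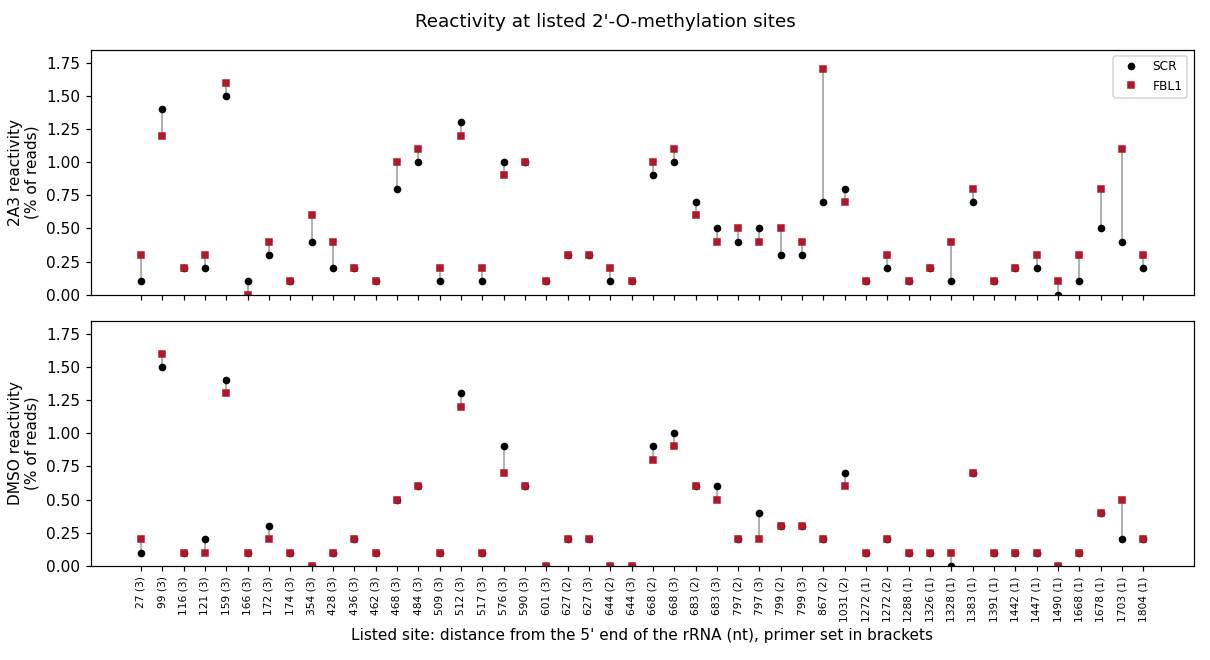
Reactivity with 2A3 (top) and DMSO (bottom) in percent of reads at the 48 measurements of 41 listed 2′-O-methylation sites, in SCR (circles) and FBL1 (squares), ordered by the distance from the 5′ end of the RNA. Gm867 has the largest difference with 2A3, from 0.7% to 1.7%, without one in DMSO, while at Cm1703 both reagents are higher in FBL1.

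Scaled rises lay near listed sites about as often as all measurements did. Of the 49 scaled rises 10 (20.4%) were within 5 nt of a listed site, against 20.5% of all measurements. They were the adjacent G867 to A872, A102, U678, and U800 counted in both primer set 2 and primer set 3. Neighbours and repeated readings are thus counted separately. Of the 48 scaled falls 1 was (2.08%). Among the 124 measurements of at least 1% mean signal that were not called, 11 (8.87%) were. Among the listed nucleotides with other modifications, 4 were measured. The N4-acetylated C1337 had 0.4% in SCR and 0.5% in FBL1, the 7-methylated G1639 had 0.3% and 0.5%, and the N6-methylated A1832 had 0.2% and 0.4%, each with 0.2% in both DMSO libraries. None of these 3 reached a threshold.

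Where primer sets overlap, the same RNA was read in separate amplicons. At the 202 positions shared by primer sets 2 and 3 the differences in percent of reads correlated with r = 0.977 across positions. They share the RNA, and positions are not independent replicates. In the scaled reading 14 of these positions were called by primer set 2 and 6 by primer set 3; the 6 were among the 14, with the same direction in both. They were U689, C713, U743, U747, C785 and U800. In the unscaled reading primer set 2 called 21 and primer set 3 called 16, and the 14 called by both had the same direction. At the 119 positions shared by primer sets 1 and 2, where signal was low, r was 0.227. The one scaled call common to both was the fall at C1247. U1156 rose by 0.7% of reads in primer set 1, where it lies at the edge of the covered stretch, and by 0.1% in primer set 2.

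**Figure D5:**
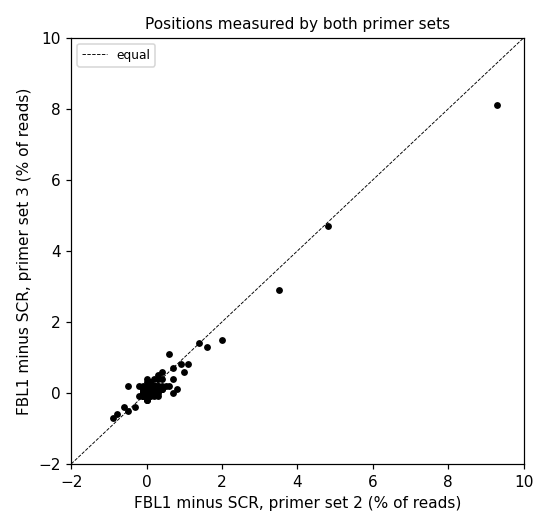
FBL1 minus SCR signal in percent of reads at the 202 positions read by both primer set 2 (horizontal axis) and primer set 3 (vertical axis); the dashed line marks equal differences. U743 stands farthest out, at 9.3% and 8.1%, followed by U689 at 4.8% and 4.7% and U800 at 3.5% and 2.9%.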

How the data were processed

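2A3 and DMSO libraries of SCR and FBL1 cells were compared per position of 18S rRNA. The submitters' processing notes list Bowtie2 and SAMtools with no version; for the reference and the counted event nothing is given in the sources used. Reactivity was deposited as a fraction of reads and converted here to percent. Coverage, a signal, was deposited as the read depth at a position. Deposited errors equal the root of reactivity over depth. Per the file headers, 5 of 6 2A3 files also hold the authors' difference from DMSO and its error, both in percent; it equalled the recomputed one. The deposited base and position columns are of other kinds and served as labels.

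Positions with coverage above 0 in all 4 libraries were used. Scale factors are means of the values ranked between the 90th and 98th percentiles. They were first computed with values tied at these percentiles included. This was changed after the counts of that form on the data had been seen, because on simulated data ties in the rounded values gave a wrong factor in primer set 1; the earlier form is kept as an alternative. Positions were named by rule: per primer set the 6 largest scaled rises and falls, groups, listed sites, low positions that rose, and changes of opposite sign. The rule, the members and the lists were chosen with earlier results of these data known. Alternatives covered subtraction, scaling, thresholds, rounding, smoothing, stretch ends, high DMSO, depth and primer sets. The FBL2 libraries were not used. The calculations were tested on simulated data, in a version with fewer and stronger changed positions than the version first tried, and ran on numpy 2.4.6, pandas 2.3.3 and matplotlib 3.10.9 under Python 3.11.15.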

Additional observations from a re-analysis of the deposited data

Results flagged for a closer look

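At 2 nucleotides the scaled change was called in one primer set and had the opposite sign in the other; with 1 library per group these differences were not tested. A1217 changed by -0.775 units in primer set 1, where reactivity with 2A3 was 0.9% in SCR and 0.3% in FBL1, and by 0.0331 units in primer set 2, where it was 0.3% and 0.6%. Its DMSO reactivity was 0.1% for SCR and 0.2% for FBL1 in primer set 1, against 0.2% and 0.4% in the other. G807 changed by 0.302 units in primer set 2 and by -0.00673 units in primer set 3. In percent of reads both values of G807 were above 0, at 0.8% and 0.1%, and its DMSO reactivity was between 1.4% and 1.8% in the 4 libraries.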

How the results depend on the processing

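The mean signal was higher in FBL1 under every alternative run: the ratio of 1.40 became 1.26 without DMSO subtraction, 1.39 without 20 positions at each stretch end, and 1.36, 1.39 and 1.49 without primer sets 1, 2 and 3. The scaled counts of 49 rises and 48 falls became 192 and 131 under 90th-percentile scaling, and box-plot scaling gave 416 and 499. In both the unit is smaller, so that 0.3 units stands for less signal. Without scaling between lines they were 154 and 15, and with thresholds of 0.2 and 0.5 units the rises numbered 97 and 23, with 24 falls at 0.5. Tied percentile values included in the scale factor, an alternative listed after seeing the data, gave 70 and 42, and 49 of the 49 rises and 41 of the 48 falls remained. Scaled falls numbered 29 without primer set 1, and rises 30 without primer set 2. Unscaled rises numbered 270 at 0.3% of reads, 67 at 1% and 81 without primer set 3. Unscaled falls numbered 5 at 1% of reads, 8 with a sliding mean, 16 without primer set 2 and 15 without primer set 3. The median at listed methylation sites, 0.0247 units, was 0.0563 with the 90th percentile, 0.0708 with box-plot scaling, 0.0441 without primer set 3 and turned to -0.00512 without DMSO subtraction.

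With box-plot scaling the rises of primer set 2 at U689 (-7.70), U743 (-27.3), U800 (-3.36), G852 (-8.95), G868 (-3.02), A870 (-3.22), U871 (-5.64), G873 (-2.92) and A875 (-0.166), and of A102 (-3.40) in primer set 3, turned. Without scaling between lines, falls turned at C1418 (0.106), C1419 and G1764 (0.212), C1423 (2.12), C1765 (0.425), A1768 (0.637), C1783 (0.531), U770 (0.173), C785 (0.577 in primer set 2, 0.20 in primer set 3), C839 (0.0577) and U1115 (0.462). C1423 also turned with the median ratio (0.0734), 1 factor per base (0.0687) and tied values included (0.0504), and C785 with 1 factor per base (0.152). The sliding mean left 26 of the 49 rises and 25 of the 48 falls. The cause of the other moves was not tested. No paired analysis was possible because there is only 1 library for each line, reagent and primer set. Depth and rounding limit single positions: values under 0.05% are listed at 0.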
